A study of Mus musculus with 8 samples.

Results

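The heterotrimeric G-protein genes examined here are Gnal, Gng13, Gnb1 and Ric8b, which serve odor transduction in mature olfactory sensory neurons (OSNs), Gnas and Gng8, which are used at the immature stage, and Gnai2, Gnao1 and Rgs2. They were chosen by name as 9 genes, and a gene was measured where a transcript cluster of the array named that gene alone, with the brightest cluster kept where there were several. By this rule 8 of the 9 genes were found among 19928 genes tested. The only cluster of Gnas also names its antisense transcript Gnasas1, so its signal cannot be assigned to 1 of them, and it is given below as the Gnas/Gnasas1 cluster, tested in a fit in which 21533 genes and clusters with several names were kept.

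Olfactory mucosa was taken from mice at postnatal day 3 on a mixed 129 x C57BL/6J background, and total RNA of each mouse was measured on 1 array. The mutants were 4 123Cre:Lhx2fl/fl mice (called cKO), and the controls were 2 Lhx2fl/+ mice without Cre (controls 1 and 2) and 2 123Cre:Lhx2fl/+ mice (controls 3 and 4), so that every mouse carried at least 1 floxed Lhx2 allele. The 123Cre transgene acts from the immature OSN stage onward, removes the first 3 exons of the LIM-homeodomain gene Lhx2, and does so in only a fraction of OSNs, which limits the mutant as a model of complete loss. The labels do not say which mice were littermates of one another.

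When an odorant receptor binds its ligand in a mature OSN, the olfactory G protein, built from the alpha subunit encoded by Gnal with a beta and a gamma subunit, releases its alpha subunit to activate adenylyl cyclase type III, and the cAMP made opens a cation channel in the cilium. As OSNs mature, Gnas, the gene of the stimulatory alpha subunit of most cells, gives way to Gnal, and Gng8 gives way to Gng13. Gnb1 encodes a beta subunit that partners Gng13, and Ric8b encodes an exchange factor and chaperone for the olfactory alpha subunit. Gnai2 and Gnao1 encode alpha subunits of the inhibitory class that are widely expressed in neurons and known from vomeronasal neurons, and Rgs2 encodes a regulator of G-protein signaling known to restrain odor-driven cAMP production.

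The promoters of the pair of gamma subunit genes are shown because these genes mark the opposite stages. Promoter windows from RefSeq (build GRCm38.p6) were at hand for 7 of the 9 genes, 11 windows in all. In each sequence the 250 bases before a start site are written 5′ to 3′ on the plus strand, and capitals mark the bases matching CCCNNGGG, the core of the site bound by the Olf1/Ebf factors of OSNs. The windows are Gng13, at chr17:25716922-25717171, and Gng8, at chr7:16891536-16891785.
Gng13: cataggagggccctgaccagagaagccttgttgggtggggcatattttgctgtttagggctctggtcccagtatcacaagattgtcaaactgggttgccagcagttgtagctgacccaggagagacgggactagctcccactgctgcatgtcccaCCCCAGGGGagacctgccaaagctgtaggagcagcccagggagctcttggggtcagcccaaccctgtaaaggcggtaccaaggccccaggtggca
Gng8: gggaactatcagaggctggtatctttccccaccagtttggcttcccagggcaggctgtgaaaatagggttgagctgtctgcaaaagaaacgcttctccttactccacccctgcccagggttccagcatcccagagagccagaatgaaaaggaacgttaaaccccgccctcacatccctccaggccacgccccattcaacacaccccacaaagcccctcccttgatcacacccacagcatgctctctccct

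The Gng13 window held a pair of overlapping matches to CCCNNGGG, starting 95 and 94 bases before the start site, and the Gng8 window held 0. A second Gng13 window held 0 as well, and of the 4 Gnas windows 1 held a match, which started 250 bases before its start site. The core was found in 11.8% of all 32851 mouse promoter windows of this length. The homeodomain cores TAATTA and TAATGA, searched on both strands as CCCNNGGG was, are in 4.84% and 8.59% of all windows and in 0 of the 11 windows of the G-protein genes. A match is a description of the letters only.

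The targeted gene and the makeup of the tissue were checked first. The Lhx2 cluster, which also covers exons that remain after recombination, read 13.03, 12.55, 13.01 and 13.02 on the log2 scale in cKO mice 1 to 4, and 13.14, 13.09, 13.20 and 13.13 in controls 1 to 4. Omp, the classic marker of mature OSNs, fell by 0.97 on the log2 scale (SE 0.14, limma adjusted p = 0.00605), and the immature OSN marker Gap43 differed by -0.29 (SE 0.12, adjusted p = 0.268). The mean of 18 mature OSN markers, which hold none of the G-protein genes, was 11.11, 10.62, 11.05 and 10.98 in cKO mice 1 to 4 and 11.53 to 11.58 in the controls, a difference of -0.62, and 6 of the 18 fell. At an unadjusted limma p under 0.05, 16 of the 18 were lower. The mean also holds Scgb1c1 (-0.01) and Slc8a2 (0.09), which were level, and it was not computed without them. The mean of 17 immature OSN markers was 11.76 to 11.85 in cKO mice and 11.83 to 11.92 in controls, a difference of -0.06, and 1 of the 17, Stmn4, fell. At an unadjusted limma p under 0.05, 4 of the 17 were lower and 1 was higher, against 9.87% and 5.13% of all genes. All cKO values lay below all control values for Gap43, Dcx, Ncam1 and Stmn4, as they did for 8.43% of all genes. In these bulk samples, fewer mature OSNs and less RNA per mature OSN cannot be told apart. Among other cell types, the marker means differed by 0.12 for OSN progenitors, 0.02 for sustentacular cells, 0.10 for microvillous cells, 0.08 for ensheathing glia, 0.07 for macrophages, -0.07 for respiratory ciliated cells and -0.08 for blood and vessels, with 0 genes of these lists past the threshold. Without cKO 2, the marker means differed by -0.51 for mature and -0.04 for immature OSNs, 0.10 for progenitors, -0.0021 for sustentacular cells, 0.073 for microvillous cells, 0.059 for ensheathing glia, 0.06 for macrophages, -0.015 for ciliated cells and -0.12 for blood and vessels.

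The mouse cKO 2 stood apart from the other mutants. It had the lowest Lhx2 value and the lowest mature marker mean, was by its sex-linked mRNAs the only female among the mutants, and was the only mutant whose sample title begins with the letter B, a letter whose meaning is not stated. These features cannot be told apart with 1 mouse. Among the controls, mice 1 and 4 were female by the same mRNAs and mice 1 and 2 had the letter B. The mature marker means of all controls were 11.53 to 11.58. Results that rest on cKO 2 are given with and without this mouse where both were computed.

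None of the 8 G-protein genes passed the threshold of an adjusted p under 0.01 by limma, with 0 lower and 0 higher, against 2.07% of all genes called lower and 0.0602% called higher. The methods' t-test called 0 as well. At an unadjusted p under 0.05, 3 of the 8 (37.5%) were lower in cKO mice, against 9.87% of all genes, and 1 (12.5%) was higher, against 5.13%. The arrays of the groups did not overlap for the same 4 genes. All cKO values lay below all control values for Gnal, Gng13 and Ric8b, 37.5% against a background of 8.43%, and above them for Rgs2, 12.5% against 3.18%. The median difference of the 8 genes was -0.18, and that of all genes was 0.03. Without cKO 2, 3 of the 8 passed at an adjusted p under 0.01, namely Gnal, Gng13 and Ric8b, all lower, and 676 genes of the array were called in place of 424.

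**Figure D1:**
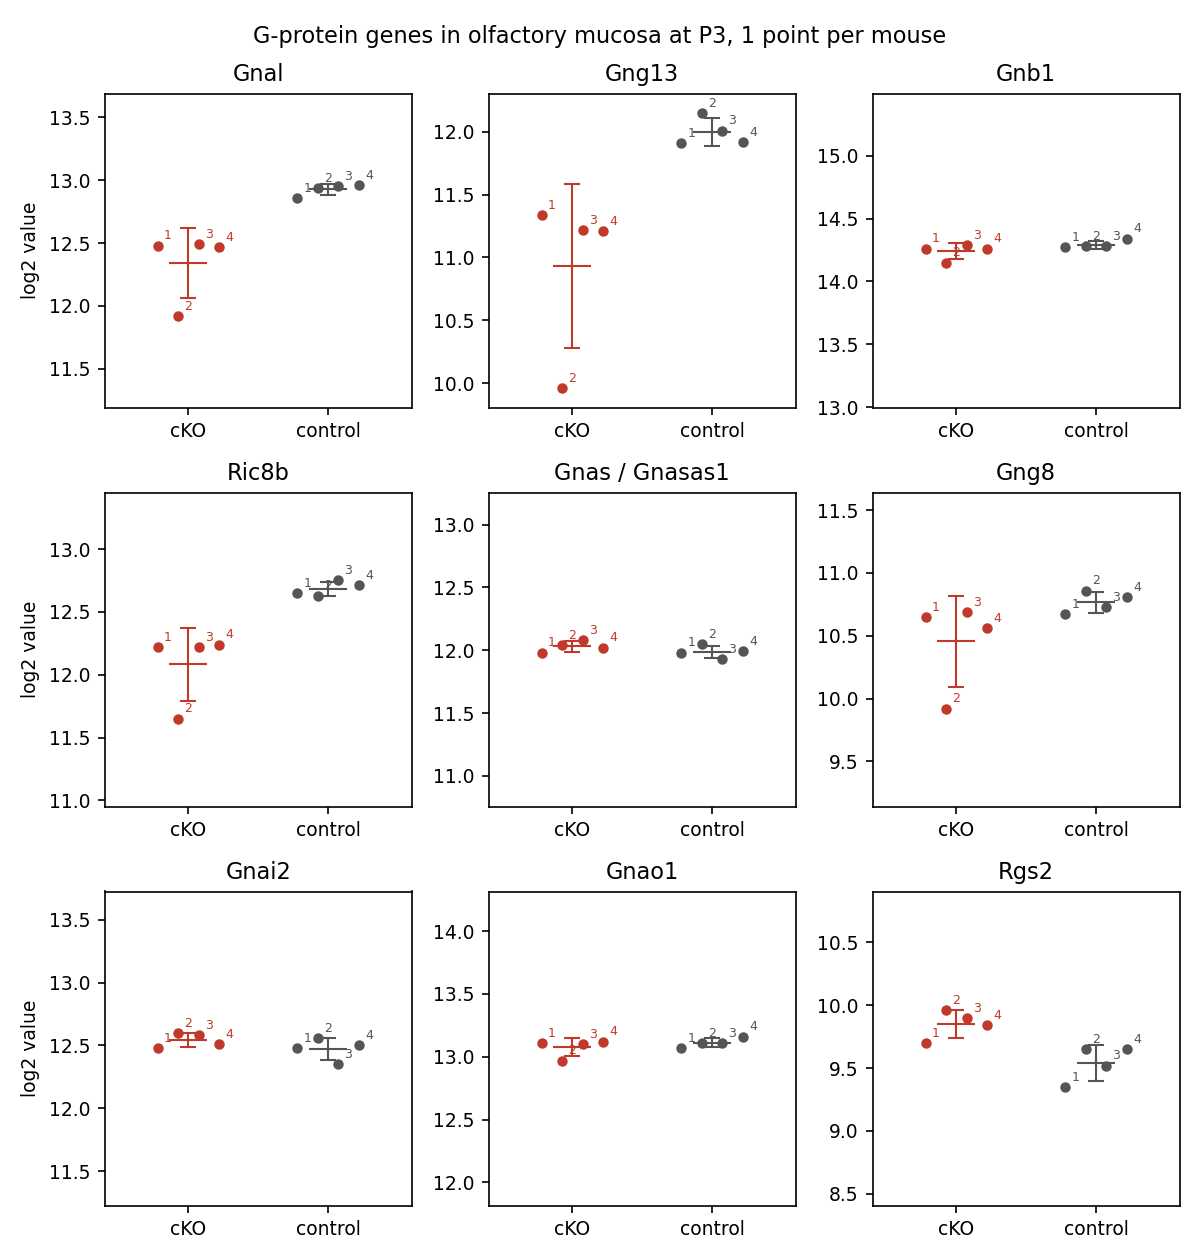
Log2 array value (vertical axis) of each G-protein gene in the 4 cKO mice (red, left) and the 4 controls (gray, right) at P3, with mouse numbers beside the points, the group mean as a horizontal line and the SD as an error bar. Each panel has its own range but the same number of log2 units. Gnal, Gng13 and Ric8b lie below the controls in every cKO mouse and Rgs2 lies above them, whereas the other genes overlap, and cKO 2 is the lowest for Gnal, Gng13, Ric8b and Gng8.

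Gnal, the alpha subunit gene of odor transduction, read 12.48, 11.92, 12.49 and 12.47 in cKO mice 1 to 4 and 12.86, 12.94, 12.95 and 12.96 in controls 1 to 4. The groups did not overlap, 3 of the mutants were close to each other, and cKO 2 lay further down. The means were 12.34 ± 0.28 in cKO mice and 12.93 ± 0.04 in controls (SD, n = 4 each), and the difference was -0.59 (SE 0.12, 95% interval -0.86 to -0.31), or 66.7% of the control level (limma adjusted p = 0.0263). The call at 0.01 was not stable. Without cKO 2 the difference was -0.45 and the limma adjusted p was 0.00083. With all 8 mice the adjusted p was 0.00613 with title letter as a fixed block and 0.00759 with sex as a block. Other alternatives did not pass, with 0.0308 for title letter as a random block, 0.0655 to 0.0783 without any 1 control, and 0.115 by the methods' t-test.

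Ric8b, whose product assists the olfactory alpha subunit, followed Gnal closely in size. Its values were 12.22, 11.65, 12.22 and 12.24 in cKO mice 1 to 4 and 12.65, 12.63, 12.75 and 12.71 in controls 1 to 4. Again cKO 2 was lowest and the groups did not overlap. The difference was -0.60 (SE 0.13, 95% interval -0.89 to -0.31), or 65.8% of the control level, with a limma adjusted p of 0.0271. Without cKO 2 it was -0.46 with a limma adjusted p of 0.000894. With all mice the adjusted p was 0.00499 with title letter as a fixed block and 0.00909 with sex as a block. Other alternatives did not pass, with 0.0321 for title letter as a random block, 0.0590 to 0.0789 without any 1 control, and 0.118 by the methods' t-test.

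Gng13, the gamma subunit gene of mature OSNs, showed the widest gap among the 9 genes. It read 11.34, 9.96, 11.22 and 11.21 in cKO mice 1 to 4 and 11.91, 12.15, 12.01 and 11.92 in controls 1 to 4. Every mutant was below every control, and cKO 2 was more than 1 log2 unit below the other mutants. The SD was 0.65 in cKO mice and 0.11 in controls (n = 4 each), and the difference was -1.06 (SE 0.27, 95% interval -1.68 to -0.44), or 47.9% of the control level (limma adjusted p = 0.0634). Without cKO 2 the difference was -0.74 and the limma adjusted p was 0.0006. With all mice and sex as a block the difference was -1.22 with an adjusted p of 0.00958. With title letter as a fixed block it was -1.19 with an adjusted p of 0.0240, which did not pass. The adjusted p was 0.0713 with title letter as a random block, 0.134 to 0.145 without any 1 control, and 0.198 by the methods' t-test.

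Gnb1, the beta subunit gene that partners Gng13, was the brightest of the genes and was nearly level between the groups. It read 14.26, 14.15, 14.29 and 14.26 in cKO mice 1 to 4 and 14.27, 14.28, 14.28 and 14.34 in controls 1 to 4. The groups overlapped, and the difference was -0.05 (SE 0.05, 95% interval -0.16 to 0.05, limma adjusted p = 0.664). On the scale of this array the interval leaves room for a loss of at most 0.16 log2 units. The level of Gnb1 was at percentile 99.965 of all genes. Whether array values so near the top of the range understate a difference was not tested.

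Of the immature-stage subunits, the Gnas/Gnasas1 cluster read 11.98, 12.04, 12.08 and 12.02 in cKO mice 1 to 4 and 11.98, 12.05, 11.93 and 11.99 in controls 1 to 4. The groups overlapped almost fully. The difference was 0.04 (SE 0.04, 95% interval -0.05 to 0.14, limma adjusted p = 0.714).

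Gng8, the gamma subunit gene of immature OSNs, read 10.65, 9.92, 10.69 and 10.56 in cKO mice 1 to 4 and 10.67, 10.86, 10.73 and 10.81 in controls 1 to 4. Mice 1 and 3 of the mutants were close to the lowest control, and cKO 2 lay well below all others. The difference was -0.31 (SE 0.16, 95% interval -0.67 to 0.04), or 80.4% of the control level (limma adjusted p = 0.415), and without cKO 2 it was -0.14 (adjusted p = 0.404).

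The alpha subunit genes of the inhibitory class were level. Gnai2 averaged 12.54 ± 0.06 in cKO mice and 12.47 ± 0.09 in controls, ranged over 12.48 to 12.60 in cKO mice and 12.35 to 12.56 in controls, and the difference was 0.07 (SE 0.06, 95% interval -0.06 to 0.20, limma adjusted p = 0.660). Gnao1 averaged 13.07 ± 0.07 in cKO mice and 13.11 ± 0.03 in controls, ranged over 12.97 to 13.12 in cKO mice and 13.07 to 13.16 in controls, and the difference was -0.04 (SE 0.05, 95% interval -0.15 to 0.07, limma adjusted p = 0.773). Both genes overlapped between the groups. Vomeronasal neurons also use these subunits. The mean of 6 vomeronasal neuron markers was 6.08 to 6.48 in cKO mice and 6.01 to 6.59 in controls, and 0 of the 6 passed the threshold. The brightest of them, Calr4, averaged 8.63 ± 0.60 in cKO mice and 8.55 ± 0.99 in controls. The median level of 166 vomeronasal receptor genes was 5.37, below the lower quartile of all genes at 7.52.

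Rgs2 was the one gene of the set that read higher in every mutant. It read 9.70, 9.96, 9.90 and 9.84 in cKO mice 1 to 4 and 9.35, 9.65, 9.52 and 9.65 in controls 1 to 4. The groups were separated by a narrow margin, with cKO 1 just above controls 2 and 4. The difference was 0.31 (SE 0.08, 95% interval 0.12 to 0.50), a 1.24-fold higher level, and its limma adjusted p was 0.0761. Leaving out any 1 mouse gave differences of 0.24 to 0.36, with 0 of the 8 fits past the threshold. The OSN progenitor markers moved with it in sign, with Kit 0.16 higher (adjusted p = 0.0715) and Neurog1 0.16 higher (adjusted p = 0.178), and their part in the result was not tested.

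**Figure D2:**
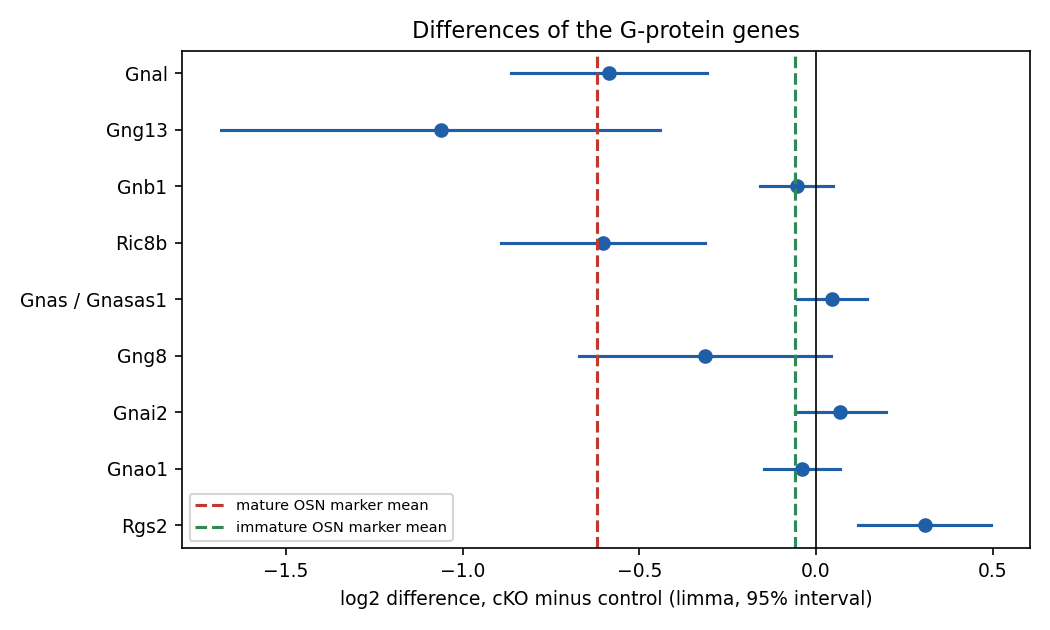
Difference in log2 value, cKO minus control, with its 95% interval from limma (horizontal axis), for each G-protein gene (rows); 4 mice per group. Dashed lines mark the differences of the mature (-0.62) and immature (-0.06) OSN marker means. Gnal and Ric8b sit at the mature line, and Gng13 lies beyond that line with an interval that includes it. Gnb1, Gnao1, Gnai2 and the Gnas/Gnasas1 cluster sit near 0, and Gng8 lies between the lines with an interval that spans 0.

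Each mature-stage subunit gene was set against its immature-stage counterpart within each array as a difference of log2 values. Because array levels of different genes are not on a common scale, only the change of such a difference between the groups is read, as a description with no test. Gnal minus the Gnas/Gnasas1 cluster was 0.51, -0.12, 0.42 and 0.44 in cKO mice 1 to 4 and 0.88, 0.89, 1.02 and 0.97 in controls 1 to 4. The groups did not overlap, and the change was -0.63, or -0.49 without cKO 2. Gng13 minus Gng8 was 0.69, 0.05, 0.53 and 0.65 in cKO mice 1 to 4 and 1.23, 1.29, 1.27 and 1.11 in controls 1 to 4. Here too the groups did not overlap, and the change was -0.75, or -0.60 without cKO 2. In both pairs the mature-stage gene read lower in every mutant, and the immature-stage gene was not higher in cKO mice beyond its error. Gnas is a gene of most cells, so in whole mucosa its cluster is no measure of immature OSNs alone. With the mean of each group subtracted, its r was -0.462 with the immature OSN marker mean and 0.926 with Gnai2. The first of these differences therefore does not measure a balance of OSN stages.

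The genes of odor transduction were also set against the mature OSN marker mean of the same arrays. The 18 markers themselves differed between the groups by -1.81 to 0.09, a range that holds both Gnal and Gng13. Gnal minus the mature marker mean was 1.37, 1.30, 1.45 and 1.48 in cKO mice 1 to 4 and 1.33, 1.38, 1.38 and 1.38 in controls 1 to 4, a change of 0.04 with overlapping groups. Gng13 minus the same mean was 0.23, -0.65, 0.18 and 0.23 in cKO mice 1 to 4 and 0.37, 0.60, 0.43 and 0.34 in controls 1 to 4. These groups did not overlap, and the change was -0.44, or -0.23 without cKO 2. Relative to Omp alone, Gnal was higher in cKO mice by 0.38, with -0.20 to -0.08 in cKO mice and -0.54 to -0.45 in controls, and these groups did not overlap. Omp itself differed by -0.97, against -0.62 for the mature marker mean. Any gene that fell less than Omp reads higher against it, so this shift is not particular to Gnal. Gnb1 minus Gng13 was 2.92 to 4.18 in cKO mice and 2.13 to 2.41 in controls, a change of 1.01.

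**Figure D3:**
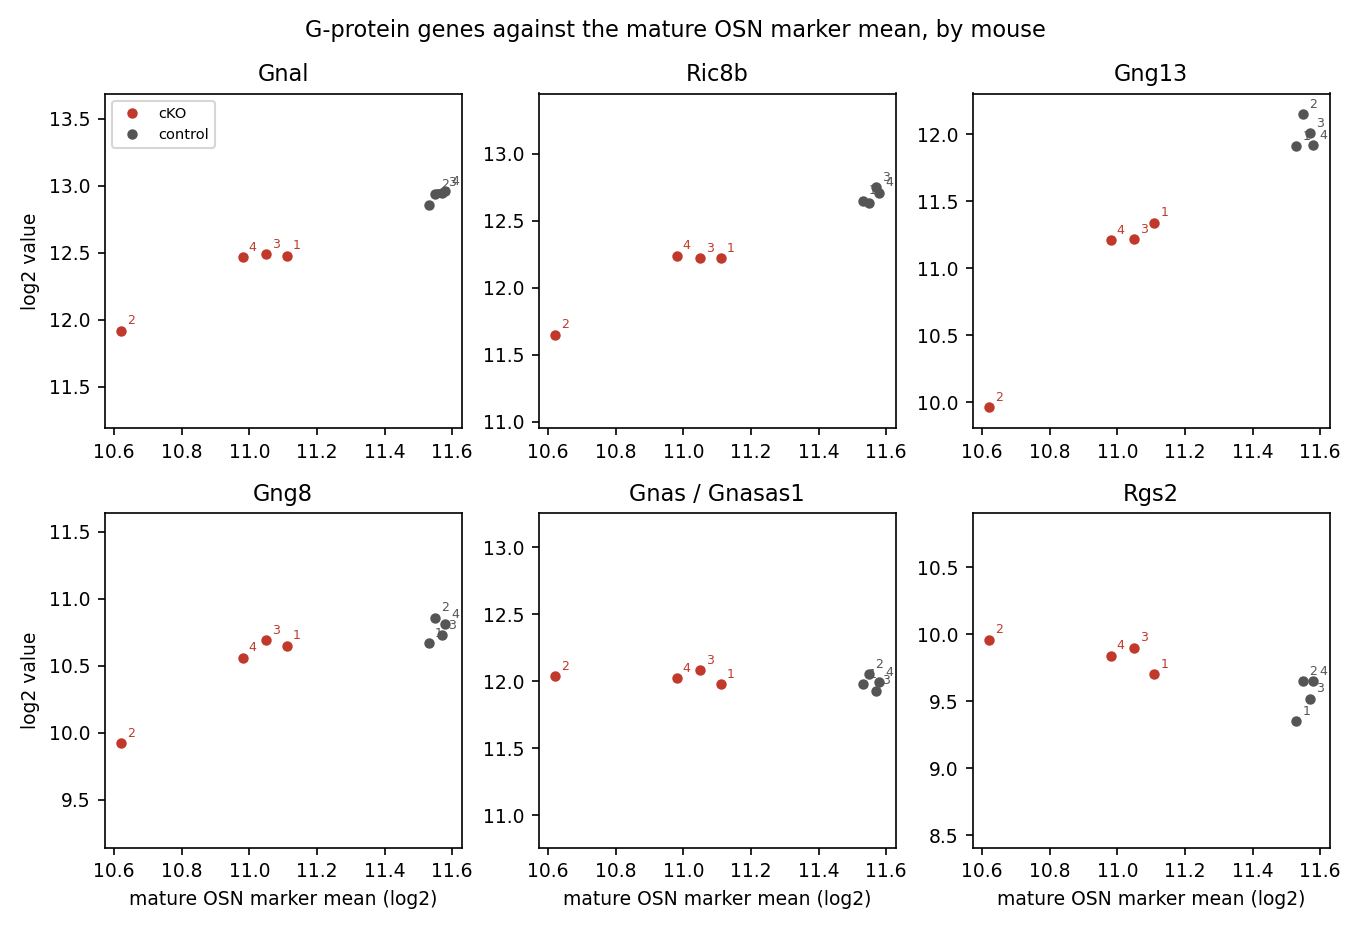
Log2 value of 6 G-protein genes (vertical axes, the same number of log2 units in each panel) against the mean log2 value of the 18 mature OSN markers (horizontal axes) in the 4 cKO mice (red) and the 4 controls (gray), numbered by mouse. Gnal, Ric8b and Gng13 are lowest where the marker mean is lowest, in cKO 2, whereas the Gnas/Gnasas1 cluster is flat and Rgs2 is highest in cKO 2.

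The genes whose pattern over the 8 arrays was most like that of each stage marker were found by Pearson correlation among 14324 genes above the lower quartile of level, leaving out chemoreceptor genes. These correlations are descriptions, and a difference between the groups that both genes share raises them. For Gnal they were Rtp1 (r = 0.999, rho = 0.976), Gramd1c (r = 0.998, rho = 0.905), Ric8b (r = 0.996, rho = 0.857) and Cngb1 (r = 0.995, rho = 0.952), which include a chaperone of odorant receptors (Rtp1) and a subunit of the transduction channel (Cngb1). Without control 4 and cKO 2, the arrays farthest from the median of Gnal, their r values were 0.986 to 0.996. For Gng13 they were Cartpt (r = 0.993, rho = 0.905), Ppp1r15a (r = 0.993, rho = 0.976), Gramd1c (r = 0.992, rho = 0.976) and Dner (r = 0.991, rho = 0.881), and without control 2 and cKO 2 their r values were 0.959 to 0.995. Gramd1c was on both lists.

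Gng8 also moved with the mature-stage genes, at r = 0.939 with Gng13 and 0.901 with Gnal over the 8 arrays, cKO 2 included. With the mean of each group subtracted and cKO 2 included, its r was 0.965 with the mature OSN marker mean and 0.577 with the immature one. The mouse cKO 2 was the lowest for Gng8 and for both marker means. These r values were not computed without it, so they may rest on this mouse. The genes most similar to the immature-stage genes were not those listed above for Gnal and Gng13. For Gng8 they were Ankrd13b (r = 0.984, rho = 0.905), Syt11 (r = 0.983, rho = 0.810), Sult4a1 (r = 0.980, rho = 0.905) and Ncam2 (r = 0.979, rho = 0.810). These rested in part on the extreme arrays, as r was 0.651 to 0.871 without control 2 and cKO 2. For the Gnas/Gnasas1 cluster they were Tpm3 (r = 0.973, rho = 0.976), Antxr1 (r = 0.968, rho = 0.905), Tnc (r = 0.964, rho = 0.976) and Coro2b (r = 0.964, rho = 0.905), and r was 0.907 to 0.982 without cKO 3 and control 3. These were the highest of 14325 candidates over 8 arrays, for a cluster that barely varied (SD 0.04 in cKO mice and 0.05 in controls). With so many candidates, high values can arise without any link, and none was tested.

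The rest of G-protein signaling was described through 74 other genes of 7 classes. By limma, at an adjusted p under 0.01, 3 of them fell and 0 rose, against 2.07% and 0.0602% of all genes. Their median difference was 0.04, and the methods' t-test called 0. At an unadjusted p under 0.05, 5 of the 74 (6.76%) were lower, against 9.87% of all genes, and 6 (8.11%) were higher, against 5.13%. All cKO arrays lay below all control arrays for 4 (5.41%), against 8.43% of all genes, and above for 2 (2.7%), against 3.18%. The 3 calls depended on single mice, with 4 genes called without cKO 2, 1 without cKO 1, 1 without control 2 and 0 without any other mouse.

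Among the alpha subunit genes, 15 of 16 were measured and 0 passed the threshold. Beside Gnal, the smallest p values were those of Gnaz, with a difference of 0.14 (adjusted p = 0.307), and Gnai1, with 0.19 (adjusted p = 0.362), both genes of the inhibitory class. All 5 beta subunit genes were measured and 0 passed, with Gnb2 at 0.08 (adjusted p = 0.579) and Gnb5 at -0.07 (adjusted p = 0.660). All 12 gamma subunit genes were measured, and Gng13 and Gng8 had the lowest differences among them. Of the other gamma subunit genes 0 passed, and Gngt1 differed by 0.14 (adjusted p = 0.167) and Gng4 by 0.21 (adjusted p = 0.316). The other exchange factors and chaperones were Ric8b's 8 companions on a list of 9, and 0 of these passed, with Gpsm2 differing by 0.09 (adjusted p = 0.452) and Pdcl3 by 0.09 (adjusted p = 0.542).

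The RGS proteins, which speed the shutdown of alpha subunits, held 2 of the 3 genes that fell outside the 9. Rgs6 read 9.93, 10.01, 9.83 and 9.90 in cKO mice 1 to 4 and 10.60, 10.29, 10.73 and 10.58 in controls 1 to 4, and it fell by 0.63 (SE 0.09, limma adjusted p = 0.00605). Rgs7bp, the gene of an anchoring protein for RGS proteins of this class, read 8.66, 8.35, 8.59 and 8.80 in cKO mice 1 to 4 and 9.33, 9.53, 9.22 and 9.21 in controls 1 to 4, and it fell by 0.72 (SE 0.11, adjusted p = 0.00676). The groups did not overlap for either gene, and for Rgs6, unlike for Gnal and Gng13, cKO 2 was the highest mutant. Rgs7 differed by -0.89 (adjusted p = 0.0358) and Rgs3 by -0.19 (adjusted p = 0.146). Of 23 RGS genes 22 were measured, and 2 fell.

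Among 10 adenylyl cyclase genes 1 fell. Adcy3, the cyclase that the olfactory alpha subunit activates and itself one of the mature OSN markers, read 11.46, 11.01, 11.33 and 11.24 in cKO mice 1 to 4 and 12.06, 12.10, 12.24 and 12.08 in controls 1 to 4, a fall of 0.86 (SE 0.09, limma adjusted p = 0.00267). Adcy1 differed by 0.30 (adjusted p = 0.103) and Adcy8 by 0.35 (adjusted p = 0.320). Of the receptor kinase and arrestin genes, 9 of 12 listed symbols were matched and 0 passed. Arrb1 read 10.76 to 10.84 in cKO mice and 10.49 to 10.66 in controls, a difference of 0.24 (SE 0.05, adjusted p = 0.0230) with no overlap, and Arrb2 differed by -0.09 (adjusted p = 0.444).

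**Figure D4:**
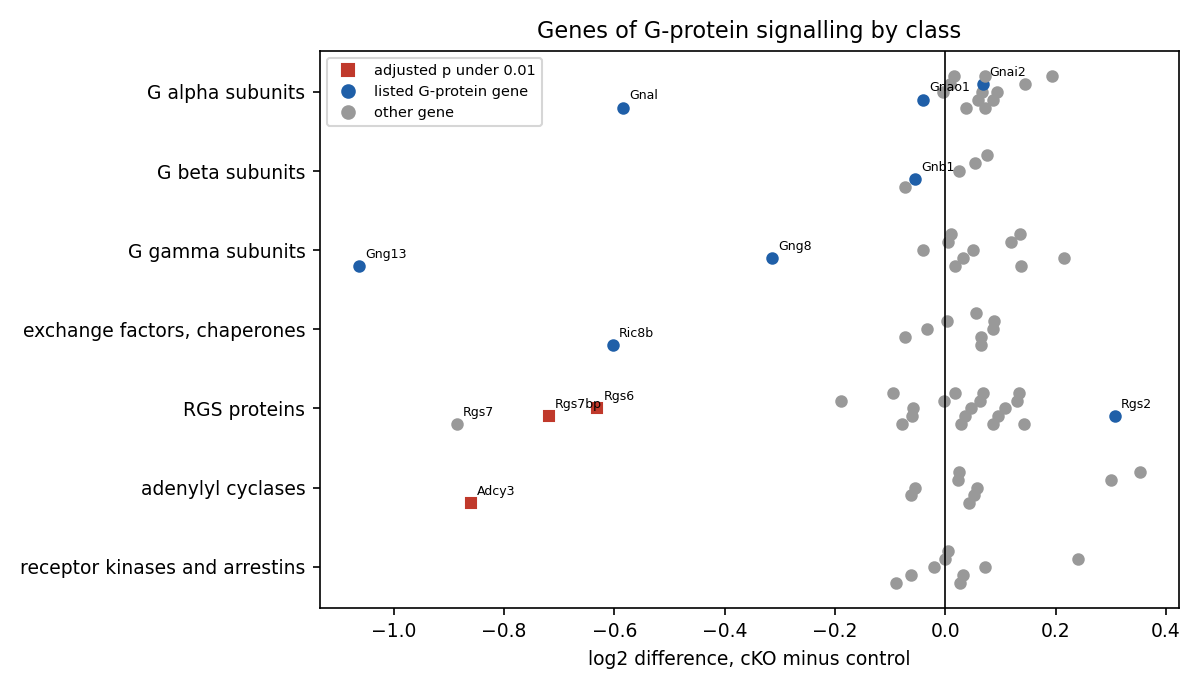
Log2 difference, cKO minus control (horizontal axis), of each gene of G-protein signaling measured alone by a cluster, by class (rows), with the 8 G-protein genes in blue, the other 74 in gray and those at a limma adjusted p under 0.01 as red squares; points are offset vertically for legibility. Most genes lie near 0, and Gng13, Rgs7, Adcy3, Rgs7bp, Rgs6, Ric8b and Gnal are the genes below -0.5.

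The comparisons were repeated within title letter, with 3 cKO mice and 2 123Cre:Lhx2fl/+ controls for A and 1 cKO mouse and 2 Lhx2fl/+ controls for B. The difference was -0.47 in A and -0.98 in B for Gnal, -0.50 and -0.995 for Ric8b, -0.71 and -2.07 for Gng13, -0.14 and -0.85 for Gng8, and 0.23 and 0.46 for Rgs2. Each kept its sign in both letters, and the values in B rest on cKO 2 alone. For Gnb1 they were -0.04 in A and -0.13 in B, for Gnao1 -0.03 and -0.12, for Gnai2 0.10 and 0.07, and for the Gnas/Gnasas1 cluster 0.07 and 0.03. The letters of the control mice coincide with their genotypes, and these cannot be told apart.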

How the data were processed

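Total RNA of 8 olfactory mucosae was hybridized to Affymetrix Mouse Gene ST arrays, and the authors deposited log2 values of 28312 transcript clusters, which join the probe sets of a gene, on each array. Affymetrix Expression Console is named in the submitters' processing notes, and neither its version nor the method of summarization is given in the sources used here. Array medians were 8.83 to 8.89, and the number of arrays limits the precision (median SE of a difference 0.067). The platform annotation named 1 gene for 21759 clusters, several for 1605 and none for 4948, and by Entrez identifier 21668 matched a RefSeq table (GRCm38.p6) that changed 0 symbols. Where several clusters named 1 gene (994 genes), the brightest was kept.

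Differences, cKO minus control, were tested two-sided by limma (3.58.1, R 4.3.3; lmFit, eBayes) with Benjamini-Hochberg adjustment over all 19928 genes, at an adjusted p under 0.01. The Gnas/Gnasas1 cluster came from a fit with clusters of several names kept, which was added after seeing the data. The fits were tested on simulated data. Replicate numbers follow accession order. The genes and lists were chosen with earlier results of these data known. In each class, genes that passed were named, or otherwise the 2 with the smallest p, and the 4 genes most correlated with Gnal, Gng13, Gng8 and the Gnas/Gnasas1 cluster. The comparison was repeated with quantile normalization, median centring, eBayes with trend and robust options, the t-test of the methods, a threshold of 0.05, leaving out dim genes, averaging clusters, a block for sex or title letter, weights on arrays, either control genotype alone, subtraction of the mature marker mean, and leaving out each mouse.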

Additional observations from a re-analysis of the deposited data

Results flagged for a closer look

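Across 26 checked sets of 4 values (genes and values derived from them, in each group), 7 held a mouse set far from the other 3 by Dixon's criterion, which chance alone meets in about 1 of 20 sets. Not all differences of 2 genes given above were among the sets, and Gnb1 minus Gng13 was left out. The sets share mice and genes, and several of the genes move together, so they are not independent. The count of 7 in 26 therefore cannot be weighed against 1 in 20. In 6 of the 7 the mouse was cKO 2, the only female mutant and the only mutant of title letter B, and it was the lowest mutant for Gnal (11.92), Ric8b (11.65), Gng13 (9.96), Gng8 (9.92) and Gnao1 (12.97). It was also the lowest for Gnal minus the Gnas/Gnasas1 cluster (-0.12). Its Lhx2 value (12.55) and mature OSN marker mean (10.62) were the lowest of all arrays. In the controls, mouse 4 was the highest for Gnb1 (14.34).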

How the results depend on the processing

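The number of genes called over the whole array moved most. It was 424 with the settings of the report, 1 by the methods' t-test, 1104 at an adjusted p under 0.05, 0 against the Lhx2fl/+ controls alone, 0 against the 123Cre:Lhx2fl/+ controls alone, and 30 (without control 1) to 676 (without cKO 2) when a mouse was left out. Of the 8 G-protein genes, the number lower was 0, but 2 at an adjusted p under 0.05 (Gnal and Ric8b, with Gnal at -0.59), 2 with title letter as a fixed block (Gnal at -0.65, adjusted p = 0.00613, and Ric8b), 3 with sex as a block (Gnal at -0.65, Gng13 at -1.22, adjusted p = 0.00958, and Ric8b), where genes lower over the whole array numbered 603 with the letter block and 573 with the sex block against 412, and 0 to 3 when a mouse was left out, with 3 only without cKO 2. Leaving out a mouse gave -0.64 to -0.45 for Gnal and -1.20 to -0.74 for Gng13. Over all alternatives the adjusted p was 0.00083 to 0.811 for Gnal, 0.000894 to 0.906 for Ric8b and 0.0006 to 0.300 for Gng13. Within title letter B, which has 1 mutant, the differences were -0.98 for Gnal, -2.07 for Gng13, -0.85 for Gng8, -1.01 for Gnal minus the Gnas/Gnasas1 cluster and -1.22 for Gng13 minus Gng8.

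Subtracting the mature OSN marker mean array by array, or its mean difference, moved the median of all genes to 0.65 by construction and called 18779 and 18513 genes. Under both, 4 of the 8 genes were higher, Rgs2 at 0.93, Gnai2 at 0.69, Gnao1 at 0.58 and Gnb1 at 0.57, as was the Gnas/Gnasas1 cluster at 0.67, while Gnal at 0.036, Ric8b at 0.018 and Gng8 at 0.31 did not pass. Array by array, 1 of the 8 was lower, Gng13 at -0.44 (adjusted p = 0.00291). The other alternatives for normalization, filtering and variance changed no call among the G-protein genes. No paired analysis was possible because the replicate numbers follow accession order and pair no mice.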
